A study of Homo sapiens with 38 samples.

Results

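The glycolysis and hypoxia response genes described here are a list of 40 human genes, chosen by symbol, out of the 24463 genes that appear in at least 1 of the 15 deposited tables. No measured value set the choice, but earlier results of these data were known when the list was made. Transcript levels were measured by sequencing of polyadenylated RNA in 3 established human breast cancer cell lines. T47D is an estrogen receptor positive luminal line and BT-549 a receptor-negative line with mesenchymal features. The labels give T47D-TR as a line of its own and do not spell out the letters TR. At 48 h, T47D, T47D-TR and BT-549 cells had received 2.5 uM of a compound: MS177, a PROTAC (a molecule that brings a protein to the degradation machinery) against EZH2, which methylates histone H3; the negative controls MS177-N1 and MS177-N2 for MS177; or C24, an EZH2 enzyme inhibitor. The vehicle cells had 0.125% DMSO. At 30 h, T47D-TR cells had received 2.5 uM MS8815 (another PROTAC for EZH2), its negative control MS8815-N or the EZH2 inhibitor EPZ-6438, and the vehicle cells 0.05% DMSO. All cells were grown with insulin and fetal bovine serum in RPMI medium, and the labels give no oxygen level. Each of the 19 groups held 2 samples by the labels. The labels do not say whether these were separate cultures, so p-values measure the spread between these samples, which may be technical.

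Glycolysis splits glucose into pyruvate in the cytosol. Lactate dehydrogenase then turns pyruvate into lactate, or pyruvate enters mitochondria, where pyruvate dehydrogenase kinases (PDKs) can close that route. Hypoxia-inducible factors (HIFs) are transcription factors whose alpha subunits are hydroxylated by the EGLN oxygen sensors and then destroyed. When oxygen is short the subunits last, pair with ARNT and bind a short core motif in genes for glucose uptake, glycolysis, lactate export, blood vessel growth and mitochondrial turnover. In cancer cells the same genes also respond to growth signals and stress. The 40 genes were described in 7 role groups: glucose uptake, hexose phosphorylation and isomerization, phosphofructokinases, lower glycolysis, lactate and pyruvate fate, HIF factors with their oxygen sensors, and hypoxia target genes.

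Some libraries stood apart and touch the results. T47D and BT-549 libraries held between 32.1 M and 49.9 M reads (M, mega) in their listed genes, while depth is unknown for T47D-TR. The MS177 pair in T47D correlated at 0.917 across genes, against 0.990 for the DMSO pair of that table. In T47D-TR at 30 h the correlation was 0.911 for the MS8815 pair, 0.656 for the MS8815-N pair and 0.928 for the EPZ-6438 pair, against 0.978 to 0.985 for DMSO pairs. MS8815-N replicate 2 had 6933 of its 15648 listed genes at 0. The second column of MS177-N1 in T47D equalled MS177-N2 replicate 2 at 100% of 17724 shared genes and was left out, so MS177-N1 had 1 library there. As a check of the line labels, all 12 luminal markers on a fixed list were measured in T47D and T47D-TR. ESR1, the estrogen receptor, averaged 4550.1 and 1548 normalized counts in their DMSO libraries. BT-549 had ESR1 at 4.69 and the mesenchymal marker VIM at 78972. Other luminal markers were present in BT-549, with KRT18 at 19234 and GATA3 at 6242, and only 2 of 10 measured averaged under 10 normalized counts. Of 11 measured mesenchymal markers, 7 averaged under 10 normalized counts in T47D-TR DMSO libraries, but only 1 of 11 in T47D. Levels below are normalized counts in each library in the order of the replicate numbers. Folds are ratios of the group means. Log2 differences (± SE) against DMSO are on the scale of the deposited values, which understates the change of genes with low counts, and the scales of different lines are not set against each other. A change was called where limma's test, adjusted by the Benjamini-Hochberg method over all genes tested, gave p under 0.05.

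With MS177 in T47D-TR every tested enzyme of lower glycolysis fell, while VEGFA, KDM3A and HIF1A rose. The table lists 37 of the genes, of which 34 passed the filter on low values, and 6 rose, 19 fell and 9 did not pass the test. Among all 10425 genes tested, 62.5% were called (31.1% higher, 31.4% lower), so the share of called members, 73.5%, is to be read against a large general change. ADM, PFKFB4 and SLC16A1 passed the filter, at about 107 normalized counts in this table, only through the group in which they were higher, so the calls of ADM and PFKFB4 are no support. Of the other 31 members 5 rose and 18 fell. The median log2 difference was -0.39 over the 34 members and -0.00343 over all genes tested. A bulk library cannot tell a lower level in every cell from fewer cells that make the transcript. For context, FOXM1 fell to 233 normalized counts in MS177 libraries, against 1459 in DMSO libraries, and the EZH2 transcript averaged 359, against 247. The summed mesenchymal markers of the line check were 644 to 719 normalized counts in MS177 libraries, against 482 to 506 in DMSO libraries, and the luminal markers 263739 to 269862, against 252778 to 294706. Their part in the results was not tested.

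All 8 tested enzymes of lower glycolysis fell in T47D-TR with MS177, where 31.4% of all genes tested fell. PGK1, phosphoglycerate kinase (chrX:78104248-78129295, GRCh38), which makes the first ATP of the pathway, had 683 and 398 normalized counts in MS177 libraries, against 1853 and 1834 in DMSO libraries. That is a 3.41-fold fall, with a log2 difference of -1.32 ± 0.15 (limma adjusted p = 3.49e-04), and the groups did not overlap. ALDOC, one of the aldolases that split fructose bisphosphate, had 108 and 114 normalized counts in MS177 libraries, against 364 and 321 in DMSO libraries and fell 3.09-fold (limma adjusted p = 2.65e-04). TPI1, triosephosphate isomerase, fell 2.39-fold, and GAPDH, glyceraldehyde phosphate dehydrogenase, 2.25-fold. PGAM1 (phosphoglycerate mutase), ENO1 (enolase), PKM (pyruvate kinase) and ALDOA fell 2.02-fold, 1.81-fold, 1.92-fold and 1.39-fold. Limma adjusted p for these 6 lay between 3.13e-04 (GAPDH) and 0.0198 (ALDOA). ENO2, the neuronal enolase, lay below the filter with 94.0 and 92.7 normalized counts in MS177 libraries, against 95.1 and 82.1 in DMSO libraries. Since GAPDH, PGAM1, PKM, TPI1, ENO1, LDHA and ALDOA are among 16 members with numbered pseudogenes of their name, some of their reads could be split with near-identical copies. An exon of 20 of the 40 members overlaps a gene on the opposite strand, and since the use of strand in counting is not stated, reads of such partners may be included.

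The steps on either side of lower glycolysis were mixed. GPI, glucose-6-phosphate isomerase (chr19:34359718-34402413), showed the largest fall of all members with 1013 and 815 normalized counts in MS177 libraries, against 4069.7 and 4004 in DMSO libraries, a 4.42-fold fall and a log2 difference of -1.77 ± 0.10 (limma adjusted p = 2.17e-05). HK1, the common hexokinase, fell 1.39-fold (limma adjusted p = 0.00541). HK2, the inducible hexokinase, went the other way. It had 923 and 847 normalized counts in MS177 libraries, against 590.3 and 637 in DMSO libraries, a 1.44-fold rise (limma adjusted p = 0.00923). SLC2A1, the glucose transporter GLUT1, had 2729 and 2339 normalized counts in MS177 libraries, against 1905 and 2016 in DMSO libraries and rose 1.29-fold (limma adjusted p = 0.0303). Without T47D-TR DMSO or MS177 libraries in turn, the highest limma adjusted p was 0.0785 for HK2 and 0.258 for SLC2A1. Of the 5 phosphofructokinase genes 3 fell, namely PFKL (2.08-fold), PFKM (2.21-fold) and PFKFB4, against 31.4% of all genes tested. PFKFB4, which makes the activator fructose-2,6-bisphosphate, had 77.3 and 68.2 normalized counts in MS177 libraries, against 210.0 and 194 in DMSO libraries. Only the DMSO libraries carried it past the filter, so these values are a description. Its relative PFKFB3 did not pass the test, with 4948 and 4493 normalized counts in MS177 libraries, against 5474 and 5426 in DMSO libraries (limma adjusted p = 0.128).

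Among genes that set the fate of pyruvate, LDHA, which makes lactate (chr11:18394563-18408425), was the only 1 of 4 tested in T47D-TR to pass, against 62.5% of all genes tested. LDHA had 4924 and 5119 normalized counts in MS177 libraries, against 14000.5 and 12321 in DMSO libraries, a 2.62-fold fall and a log2 difference of -1.32 ± 0.11 (limma adjusted p = 9.73e-05). PDK1, a kinase that inhibits pyruvate dehydrogenase, had 295 and 299.9 normalized counts in MS177 libraries, against 342 and 352 in DMSO libraries and did not pass (limma adjusted p = 0.206). SLC16A3, the lactate exporter MCT4, had 1180.5 and 994 normalized counts in MS177 libraries, against 892 and 808 in DMSO libraries. The groups did not overlap, but SLC16A3 missed the threshold (limma adjusted p = 0.0573). SLC16A1, the lactate transporter MCT1, also missed it (limma adjusted p = 0.0622), and PDK3 lay below the filter with 35.6 and 23.4 normalized counts in MS177 libraries, against 94.1 and 81.1 in DMSO libraries.

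Promoter sequences of 4 glycolytic members that hold HIF cores are shown, since 3 of these genes fell and 1 rose with MS177 in T47D-TR. They are the 4 with the most cores among those of 35 searched members that were called with MS177 in at least 1 line (PGK1 tied with SLC16A3). NDRG1, VEGFA and SLC16A1, also called, were not searched. Each sequence is the 250 bases before an annotated start from RefSeq (GRCh38.p14), in the direction of the gene. Capitals mark the core ACGTG or GCGTG on either strand, and CACGTG holds the core on both strands and counts as 2.
LDHA: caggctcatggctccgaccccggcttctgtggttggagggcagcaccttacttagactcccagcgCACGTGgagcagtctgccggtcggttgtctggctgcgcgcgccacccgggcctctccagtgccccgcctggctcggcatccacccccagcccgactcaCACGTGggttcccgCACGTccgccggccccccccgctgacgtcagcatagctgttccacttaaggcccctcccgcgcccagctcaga
PGK1: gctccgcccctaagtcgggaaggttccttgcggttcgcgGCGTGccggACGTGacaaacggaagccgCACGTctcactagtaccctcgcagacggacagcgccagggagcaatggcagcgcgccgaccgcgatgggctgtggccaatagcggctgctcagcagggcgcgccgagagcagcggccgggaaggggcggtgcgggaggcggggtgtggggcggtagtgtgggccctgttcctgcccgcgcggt
ALDOC: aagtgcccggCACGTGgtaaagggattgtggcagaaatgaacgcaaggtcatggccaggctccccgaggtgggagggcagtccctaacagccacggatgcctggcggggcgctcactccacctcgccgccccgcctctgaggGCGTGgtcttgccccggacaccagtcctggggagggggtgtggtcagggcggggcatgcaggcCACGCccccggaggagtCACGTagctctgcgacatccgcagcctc
HK2: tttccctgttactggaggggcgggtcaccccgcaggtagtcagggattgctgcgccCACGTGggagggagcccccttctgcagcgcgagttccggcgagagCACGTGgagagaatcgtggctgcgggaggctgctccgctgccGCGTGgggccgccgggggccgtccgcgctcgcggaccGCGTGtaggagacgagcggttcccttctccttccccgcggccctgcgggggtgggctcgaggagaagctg
They lie at chr11:18394313-18394562 (plus strand), chrX:78103998-78104247 (plus strand), chr17:28576896-28577145 (minus strand) and chr2:74834920-74835169 (plus strand), the last before the second of 2 annotated HK2 starts. LDHA and ALDOC hold 5 cores each, HK2 6 and PGK1 3. At least 1 core stood in 43.2% of all 35116 promoter windows of this length, and 4 or more in 3.22%. The table matched 35 of the 40 members (not SLC2A3, VEGFA, SLC16A1, NDRG1 and BNIP3L), and 29 of these had a core in at least 1 window, against 47.4% of all 27305 genes in the table. A share by gene depends on how many windows each gene has. By window, 38 of the 63 windows of these members (60.3%) held a core, against the 43.2% of all windows. A core in these letters is a description of the sequence. LDHA, PGK1 and ALDOC fell with MS177 in T47D-TR and in BT-549, while HK2 rose in T47D-TR.

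The HIF subunits moved apart in T47D-TR with MS177. HIF1A, the HIF-1 alpha subunit (chr14:61695513-61748258), had 3738 and 3467 normalized counts in MS177 libraries, against 1812 and 1982 in DMSO libraries, a 1.90-fold rise with a log2 difference of 0.80 ± 0.09 (limma adjusted p = 3.67e-04). EPAS1, the HIF-2 alpha subunit, had 2189 and 1873 normalized counts in MS177 libraries, against 4027 and 5023 in DMSO libraries and fell 2.23-fold (limma adjusted p = 4.98e-04). EGLN3, an oxygen sensor that is itself a HIF target, had 414 and 355 normalized counts in MS177 libraries, against 1028 and 901 in DMSO libraries and fell 2.51-fold (limma adjusted p = 2.76e-04). EGLN1, the main oxygen sensor for HIF-1 alpha, had 1638 and 1315 normalized counts in MS177 libraries, against 1478 and 1433 in DMSO libraries and did not pass (limma adjusted p = 0.937).

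Of 9 tested hypoxia target genes in T47D-TR, 3 rose and 3 fell with MS177, ADM among the risers. These counts lie near the shares of all genes tested, of which 31.1% rose and 31.4% fell. ADM, the vasodilator peptide adrenomedullin (chr11:10305073-10307397), had 317 and 309 normalized counts in MS177 libraries, against 49.7 and 45.4 in DMSO libraries, a 6.58-fold ratio of means. Only the MS177 libraries carried ADM past the filter, so these values are a description. VEGFA, the main blood vessel growth factor (chr6:43770211-43786487), had 2237 and 1873 normalized counts in MS177 libraries, against 430.1 and 553 in DMSO libraries, a 4.18-fold rise with a log2 difference of 1.51 ± 0.12 (limma adjusted p = 6.34e-05). KDM3A, a histone H3 lysine demethylase (chr2:86437044-86492716), had 1159.7 and 1032 normalized counts in MS177 libraries, against 351 and 386 in DMSO libraries and rose 2.97-fold (limma adjusted p = 1.03e-04). NDRG1, a stress and differentiation gene, went down, with 376 and 300.3 normalized counts in MS177 libraries, against 1062 and 991 in DMSO libraries, a 3.04-fold fall (limma adjusted p = 1.26e-04). ANGPTL4, a secreted inhibitor of lipoprotein lipase, had 286 and 269 normalized counts in MS177 libraries, against 506 and 375 in DMSO libraries (limma adjusted p = 0.0188), and without 1 library in turn its highest limma adjusted p was 0.0696. P4HA1, a collagen prolyl hydroxylase, fell 1.34-fold (limma adjusted p = 0.0347). BNIP3, a receptor for the removal of mitochondria, had 647 and 632 normalized counts in MS177 libraries, against 560.1 and 583 in DMSO libraries and did not pass (limma adjusted p = 0.288). BNIP3L and P4HA2 did not pass either, and ANKRD37 lay below the filter with 41.1 and 34.3 normalized counts in MS177 libraries, against 26.7 and 18.7 in DMSO libraries. CA9, LDHB and SLC2A3 were not analysed in T47D-TR. Of the 15 members of this comparison followed through the settings, SLC2A1, HK2 and ANGPTL4 lost their call in at least 1 of the 4 fits that left out 1 library. ADM and PFKFB4 could not be followed in all of them, since they fall below the filter without a library of their higher group.

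**Figure D1:**
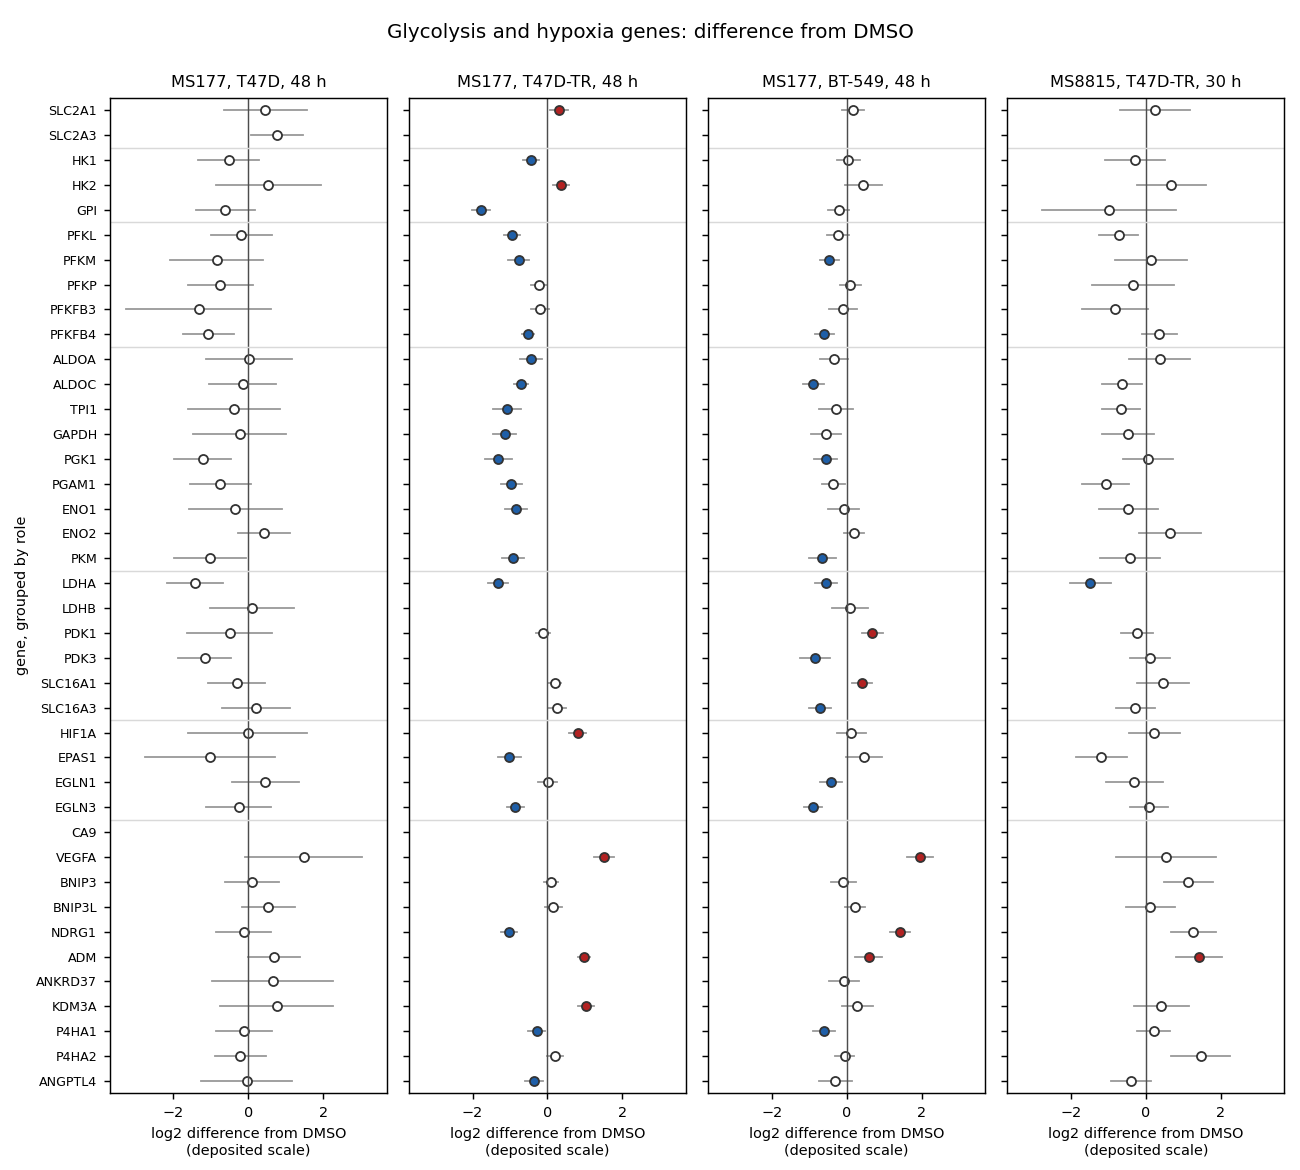
Log2 difference from DMSO on the deposited scale (x axis) with its 95% interval for each gene (rows, grouped by role) for MS177 in 3 lines and MS8815 in T47D-TR; filled points passed limma's test, red for higher and blue for lower, and missing points were not listed or lay below the filter. With MS177 in T47D-TR 6 genes rose and 19 fell, in BT-549 5 rose and 11 fell, and in T47D none passed.

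In BT-549, MS177 raised VEGFA, NDRG1, PDK1, ADM and SLC16A1 and lowered 11 members, among them EGLN3, ALDOC and LDHA. Of 38 members tested 5 rose, 11 fell and 22 did not pass, against 27.3% of all 14474 genes tested (12.9% higher, 14.4% lower). The median log2 difference was -0.09 over the members and 0.01 over all genes tested. Without BT-549 DMSO replicate 1 the calls fell to 8 (17.9% of all genes called) and without DMSO replicate 2 to 9 (17.3%). The summed luminal markers of the line check were 37435 to 44021 normalized counts in the MS177 libraries, against 27413 to 30167 in DMSO libraries, and the mesenchymal markers 180187 to 198747, against 225681 to 231173. Their part in the results was not tested.

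VEGFA showed the largest rise of the members in BT-549, with 4514 and 3847 normalized counts in MS177 libraries, against 926 and 1066 in DMSO libraries, a 4.20-fold rise and a log2 difference of 1.97 ± 0.14 (limma adjusted p = 0.00187). NDRG1, which fell in T47D-TR, had 2459 and 2367 normalized counts in MS177 libraries, against 851 and 820.3 in DMSO libraries, a 2.89-fold rise with a log2 difference of 1.43 ± 0.10 (limma adjusted p = 0.0019). ADM had 1164 and 1404 normalized counts in MS177 libraries, against 883 and 758 in DMSO libraries and rose 1.56-fold (limma adjusted p = 0.0364). P4HA1 was the only hypoxia target gene of 10 tested that fell (1.55-fold, limma adjusted p = 0.0202). BNIP3 had 2225 and 2543 normalized counts in MS177 libraries, against 2701 and 2365 in DMSO libraries, with overlapping groups. ANGPTL4 had 748 and 921 normalized counts in MS177 libraries, against 1198 and 908 in DMSO libraries. ANKRD37 had 128 and 137 normalized counts in MS177 libraries, against 174 and 114 in DMSO libraries. Neither passed, and the groups of both overlapped. CA9, the membrane carbonic anhydrase that is a classic hypoxia marker, lay below the filter of this comparison with 3.74 and 6.78 normalized counts in MS177 libraries, against 35.9 and 21.8 in DMSO libraries. KDM3A did not pass (limma adjusted p = 0.25).

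Pyruvate and lactate genes moved in both directions in BT-549. PDK1 had 685 and 683 normalized counts in MS177 libraries, against 364 and 414 in DMSO libraries, a 1.76-fold rise (limma adjusted p = 0.0122), while its relative PDK3 had 643 and 480.2 normalized counts in MS177 libraries, against 1004 and 1144 in DMSO libraries, a 1.91-fold fall (limma adjusted p = 0.0197). SLC16A1 had 12989 and 12968 normalized counts in MS177 libraries, against 9626 and 9835 in DMSO libraries (limma adjusted p = 0.0439). SLC16A3 had 358 and 391 normalized counts in MS177 libraries, against 722 and 636 in DMSO libraries, a 1.81-fold fall (limma adjusted p = 0.0124). The transporters SLC16A1 and SLC16A3 thus moved in opposite directions. LDHA had 12751 and 13066 normalized counts in MS177 libraries, against 19531 and 18662 in DMSO libraries and fell 1.48-fold (limma adjusted p = 0.0229), while LDHB did not pass (limma adjusted p = 0.749). The calls of SLC16A1 and PKM were lost with each of the 4 libraries left out in turn, those of LDHA and PGK1 with 3 of the 4, that of ADM with 2 and that of PDK1 with 1.

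Of 9 lower glycolysis enzymes in BT-549, 3 fell and none rose, against 14.4% lower and 12.9% higher among all genes tested. ALDOC had 321 and 316 normalized counts in MS177 libraries, against 714 and 626 in DMSO libraries and fell 2.11-fold (limma adjusted p = 0.00674). PKM fell 1.57-fold (limma adjusted p = 0.0278). PGK1 had 12015 and 12777 normalized counts in MS177 libraries, against 19189.6 and 17462 in DMSO libraries and fell 1.48-fold (limma adjusted p = 0.0273). GAPDH had 68788 and 74107 normalized counts in MS177 libraries, against 110555 and 98915 in DMSO libraries and just missed the threshold (limma adjusted p = 0.0517). Of the phosphofructokinase genes PFKFB4 had 87.9 and 92.0 normalized counts in MS177 libraries, against 179.5 and 172 in DMSO libraries (limma adjusted p = 0.0134), and PFKM fell 1.39-fold (limma adjusted p = 0.0301). PFKFB3 had 4099 and 3425 normalized counts in MS177 libraries, against 3701 and 4323 in DMSO libraries, with overlapping groups. None of the glucose uptake or hexose phosphorylation genes passed. SLC2A1 had 2164 and 2262 normalized counts in MS177 libraries, against 1823 and 2084 in DMSO libraries (limma adjusted p = 0.316). HK2 had 2305 and 1649 normalized counts in MS177 libraries, against 1253 and 1571 in DMSO libraries (limma adjusted p = 0.153). GPI, the largest fall in T47D-TR, had 9476 and 9005 normalized counts in MS177 libraries, against 10356 and 11009.7 in DMSO libraries (limma adjusted p = 0.22).

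EGLN3 showed the largest fall of the oxygen sensors in BT-549, with 67.3 and 64.9 normalized counts in MS177 libraries, against 191 and 186 in DMSO libraries, a 2.85-fold fall and a log2 difference of -0.90 ± 0.10 (limma adjusted p = 0.00478). EGLN1 had 4646 and 4295 normalized counts in MS177 libraries, against 5726 and 6353 in DMSO libraries and fell 1.35-fold (limma adjusted p = 0.0484). Without 1 library in turn the highest limma adjusted p of EGLN1 was 0.328. HIF1A had 6454 and 5280.1 normalized counts in MS177 libraries, against 4919 and 5797 in DMSO libraries. EPAS1 had 8133 and 6042 normalized counts in MS177 libraries, against 4571 and 5604 in DMSO libraries. Neither passed (limma adjusted p = 0.574 and 0.128).

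**Figure D2:**
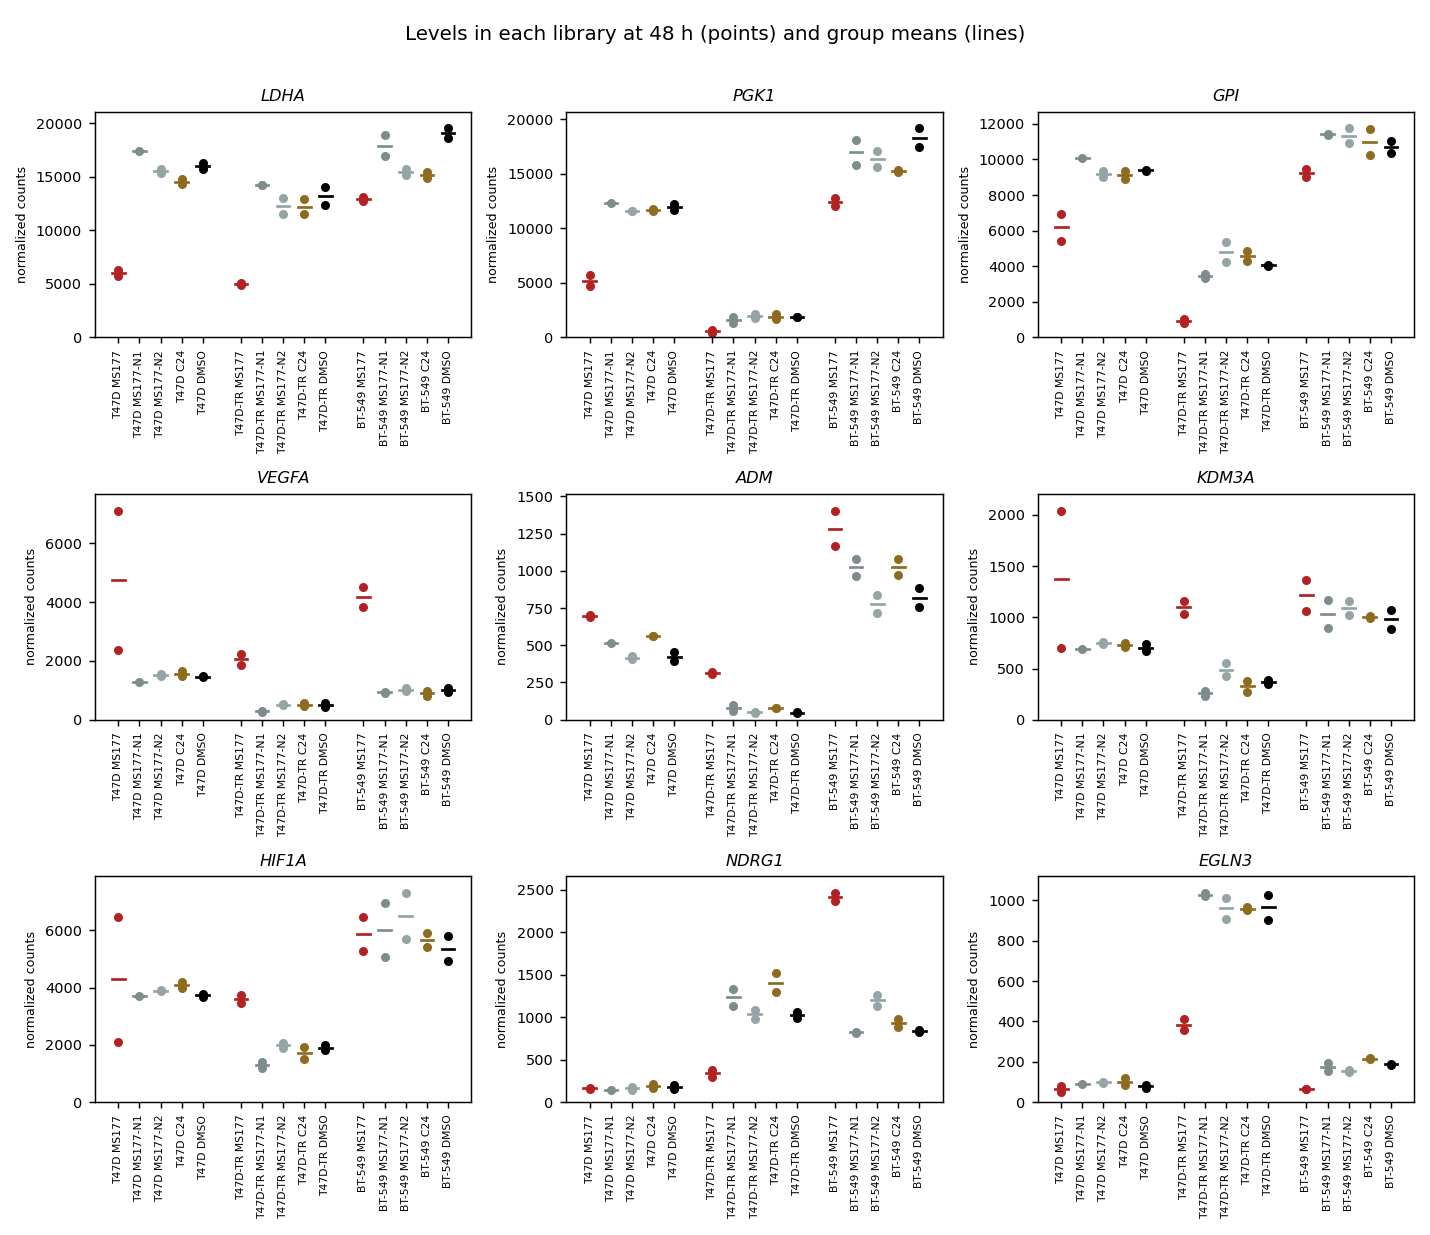
Normalized counts (y axis, from 0) of 9 genes at 48 h in each library (points) with group means (lines), for each compound and DMSO in T47D, T47D-TR and BT-549; normalized counts are set to 1 scale within a line only, and MS177-N1 in T47D has 1 library. LDHA and PGK1 were low in MS177 libraries of each line, VEGFA was high in MS177 libraries of each line, and NDRG1 was low with MS177 in T47D-TR and high in BT-549.

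In T47D no member passed the test of MS177 against DMSO. All 39 members were tested, and limma called 0% of 18146 genes there, while 7 members and 3247 genes had an unadjusted p under 0.05. The MS177 pair of T47D correlated at 0.917 across genes, against 0.976 in T47D-TR and 0.986 in BT-549. The summed luminal markers of the line check were 455468 and 945737 normalized counts in the T47D MS177 libraries, against 527656 to 539137 in DMSO libraries. The mesenchymal markers were 2507 and 3741, against 3286 to 3611. In both lists the MS177 libraries lay on either side of the DMSO pair, and the part of these markers in the results was not tested. Without MS177 replicate 1, limma called 27 members (9 higher, 18 lower, against 49.7% of all genes), and without replicate 2 it called 25 (8 higher, 17 lower, against 69.9%). With the lone MS177 library taken to vary like the DMSO pair, those counts do not test the spread between MS177 libraries. A fit over all libraries of the line, chosen after seeing the data, called 7 members (1 higher, 6 lower, against 18.2% of 17341 genes).

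Some members were alike in both T47D MS177 libraries and others were not. How many of all genes lay outside their DMSO pair in both libraries was not counted, so the values below are a description. LDHA had 5717 and 6257 normalized counts in MS177 libraries, against 15749 and 16326 in DMSO libraries, a ratio of means of 2.68 (DMSO over MS177, limma adjusted p = 0.145). PGK1 had 4685 and 5673 normalized counts in MS177 libraries, against 11728 and 12281 in DMSO libraries. PFKFB4 had 271 and 272 normalized counts in MS177 libraries, against 569 and 614 in DMSO libraries. The fourth of these, PDK3, had 411 and 515 normalized counts in MS177 libraries, against 1094 and 1031 in DMSO libraries. In these 4 genes both MS177 libraries lay far below both DMSO libraries. Lower glycolysis as a group was mixed in T47D. PGAM1 and PKM also lay below DMSO in both MS177 libraries, while ENO2 lay above it in both. GAPDH had 83437 and 43529 normalized counts in MS177 libraries, against 69039 and 72827 in DMSO libraries. Its MS177 libraries lay on either side of the DMSO pair, as did those of ENO1, ALDOA, ALDOC and TPI1. ADM had 701 and 689 normalized counts in MS177 libraries, against 392 and 456 in DMSO libraries, with no overlap. HIF1A had 2100.3 and 6475 normalized counts in MS177 libraries, against 3774 and 3687 in DMSO libraries, so the MS177 libraries lay on either side of the DMSO pair. The same held for HK2, with 338 and 907 normalized counts in MS177 libraries, against 394 and 362 in DMSO libraries, and for the next gene. SLC2A1 had 1646 and 3297 normalized counts in MS177 libraries, against 1713 and 1687 in DMSO libraries. VEGFA had 2371 and 7106 normalized counts in MS177 libraries, against 1482 and 1444 in DMSO libraries and lay above DMSO in both libraries, but the MS177 libraries also lay far apart from each other. PFKFB3 had 2704 and 10917 normalized counts in MS177 libraries, against 13799.7 and 13474 in DMSO libraries. The MS177 libraries lay below DMSO, replicate 1 by far the lower. EPAS1 had 422 and 1474 normalized counts in MS177 libraries, against 1859 and 1428 in DMSO libraries. ANKRD37, whose function is little known, had 229 and 62.3 normalized counts in MS177 libraries, against 60.2 and 82.7 in DMSO libraries. For comparison, ANGPTL4 had 724 and 318 normalized counts in MS177 libraries, against 469.9 and 528 in DMSO libraries. In both, replicate 1 was above and replicate 2 within or below the DMSO pair.

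Of the oxygen sensors in T47D, EGLN1 had 1824 and 2902 normalized counts in MS177 libraries, against 1675 and 1686 in DMSO libraries, above DMSO in both. EGLN3 had 48.1 and 80.4 normalized counts in MS177 libraries, against 71.9 and 85.7 in DMSO libraries. EGLN3, like the next 4 genes, overlapped its DMSO pair. PDK1 had 178 and 387 normalized counts in MS177 libraries, against 389 and 377 in DMSO libraries. SLC16A3 had 2326 and 1507 normalized counts in MS177 libraries, against 1477 and 1794 in DMSO libraries. The mitochondrial receptor BNIP3 had 1359.6 and 1112 normalized counts in MS177 libraries, against 1095 and 1212 in DMSO libraries. NDRG1, which moved in opposite directions in the other lines, had 154 and 167 normalized counts in MS177 libraries, against 196 and 159 in DMSO libraries. SLC2A3, the glucose transporter GLUT3, was listed in the T47D table of MS177 only, with 15.2 and 21.1 normalized counts in MS177 libraries, against 4.18 and 6.12 in DMSO libraries. CA9 was not analysed in T47D.

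To ask whether the changes belong to MS177 or to compounds of its kind in general, MS177 was compared directly with MS177-N1, MS177-N2 and C24 within each line, on log2(normalized count + 1). These comparisons share the MS177 libraries, so they are not independent of each other or of the comparison with DMSO. In T47D-TR, of 37 members 7 rose and 18 fell with MS177 against MS177-N1 (50.7% of all 15026 genes called, 23.9% higher and 26.8% lower). There, 7 rose and 20 fell against MS177-N2 (46.4%, 21.8% higher and 24.5% lower), and 6 rose and 21 fell against C24 (48.1%, 22.3% higher and 25.8% lower). In BT-549, of 39 members 5 rose and 12 fell against MS177-N1 (33.1% of 16345 genes, 15.4% higher and 17.7% lower). There, 6 rose and 12 fell against MS177-N2 (37.2%, 17.8% higher and 19.4% lower), and 5 rose and 9 fell against C24 (35.7%, 16.8% higher and 18.9% lower). In T47D, of 38 members 5 fell and none rose against the 1 library of MS177-N1 (8.56% of 17341 genes, 3.56% higher and 5% lower). There, 1 rose and 6 fell against MS177-N2 (16.7%, 7.6% higher and 9.09% lower), and 1 rose and 7 fell against C24 (19.3%, 8.29% higher and 11% lower). The T47D calls were lost when only the compared libraries entered the fit. They were also lost without either MS177-N2 or either C24 library, while without 1 MS177 library 23 to 31 members passed, in fits that called 53.9% to 75.1% of all genes.

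Against C24, VEGFA in T47D-TR differed by 2.01 ± 0.17 on this log2 scale (limma adjusted p = 2.08e-05), with 2237 and 1873 normalized counts in MS177 libraries, against 554 and 463 in C24 libraries. GPI had 1013 and 815 normalized counts in MS177 libraries, against 4299 and 4834 in C24 libraries, and differed by -2.33 ± 0.15 (limma adjusted p = 5.04e-06). Against MS177-N1, KDM3A had 1159.7 and 1032 normalized counts in MS177 libraries, against 284 and 231 in MS177-N1 libraries and differed by 2.09 ± 0.20 (limma adjusted p = 5.01e-05). EPAS1 was 2189 and 1873 in MS177 libraries, against 2384 and 1988 in MS177-N1 libraries, and did not pass (limma adjusted p = 0.763, 95% interval of the log2 difference -0.70 to 0.50). In BT-549 ALDOC had 321 and 316 normalized counts in MS177 libraries, against 1174 and 1277 in MS177-N2 libraries, a log2 difference of -1.94 ± 0.17 (limma adjusted p = 6.79e-05). CA9 had 3.74 and 6.78 normalized counts in MS177 libraries, against 32.7 and 38.6 in MS177-N2 libraries. The filter was applied over all libraries of the line, and the DMSO libraries alone would carry CA9 past it. Both MS177 libraries lay below 10 normalized counts, so these values are a description. The same holds for its place among the members counted as lower against MS177-N1 and C24 in BT-549. In T47D, LDHA had 5717 and 6257 normalized counts in MS177 libraries, against 15717 and 15348 in MS177-N2 libraries (limma adjusted p = 0.00395), and LDHA, PDK3, PGK1, PFKFB4 and PGAM1 passed against both MS177-N2 and C24, comparisons that share the MS177 libraries. These 5 were also the members called against MS177-N1, whose 1 library has no spread of its own and was taken to vary like the other groups.

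The control compounds and inhibitors moved few members against DMSO. MS177-N1 in T47D-TR was the exception, with 3 members higher and 3 lower of 34 tested (14.9% of all 10578 genes rose and 12.6% fell, 27.5% in all). ALDOA had 9572 and 11292 normalized counts in MS177-N1 libraries, against 7193 and 5850.3 in DMSO libraries and rose 1.60-fold (limma adjusted p = 0.0133). BNIP3L, a relative of BNIP3, rose 1.54-fold, and ANGPTL4 had 607 and 726 normalized counts in MS177-N1 libraries, against 506 and 375 in DMSO libraries, a 1.51-fold rise (limma adjusted p = 0.036). HIF1A, which rose with MS177, had 1418 and 1208 normalized counts in MS177-N1 libraries, against 1812 and 1982 in DMSO libraries, a 1.44-fold fall (limma adjusted p = 0.0231). VEGFA, likewise opposite, had 287 and 271 normalized counts in MS177-N1 libraries, against 430.1 and 553 in DMSO libraries, a 1.76-fold fall (limma adjusted p = 0.0114). EPAS1 had 2384 and 1988 normalized counts in MS177-N1 libraries, against 4027 and 5023 in DMSO libraries, a 2.07-fold fall (limma adjusted p = 0.00311). These comparisons share the DMSO libraries with that of MS177. In the same libraries 10 of 13 mitochondrially encoded transcripts fell, and their part in these results was not tested. Without MS177-N1 replicate 2, or without DMSO replicate 2, 1 member passed (8.43% and 2.06% of all genes called).

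MS177-N2 in BT-549 raised 1 member of 39, ALDOC, against 3.42% of 14356 genes called (2.05% higher, 1.37% lower). ALDOC had 1174 and 1277 normalized counts in MS177-N2 libraries, against 714 and 626 in DMSO libraries, a 1.83-fold rise (limma adjusted p = 0.00464), opposite to its fall with MS177. No member passed limma's test in the other 9 comparisons of a control compound or inhibitor with DMSO. In T47D these were MS177-N1 (0.179% of genes called, 0 members with unadjusted p under 0.05), MS177-N2 (0%, 0 members) and C24 (0.847%, 10 members). In T47D-TR at 48 h they were MS177-N2 (0.175%, 3 members) and C24 (0.00851%, 2 members), and in BT-549 MS177-N1 (0%, 1 member) and C24 (0.134%, 6 members). At 30 h in T47D-TR they were MS8815-N and EPZ-6438, each with 0% of genes called and 0 members with unadjusted p under 0.05.

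The MS177 response itself was then compared between lines. Between BT-549 and T47D-TR it differed in 16 of 37 members, 12 with a higher response in BT-549 and 4 with a lower one, against 30.5% of all 12887 genes (16.3% higher, 14.2% lower). NDRG1 differed most, by 3.14 ± 0.19 (limma adjusted p = 6.26e-05) on the log2(normalized count + 1) scale, since it rose in BT-549 and fell in T47D-TR. GPI differed by 1.94 ± 0.17 (limma adjusted p = 2.34e-04) and EPAS1 by 1.62 ± 0.26 (limma adjusted p = 0.00358). PGK1, PDK1 and TPI1 followed with 1.26, 1.04 and 0.94. ENO1, PFKL, LDHA, PGAM1, GAPDH and HK1 also differed, with responses between 0.52 and 0.82 higher in BT-549. Responses lower in BT-549 were those of ADM, by -2.05 ± 0.22 (limma adjusted p = 5.28e-04), KDM3A (-1.26), SLC16A3 (-1.21) and HIF1A (-0.80). Without 1 library in turn, the call of TPI1 was lost in 6 of 8 fits and those of PGK1 and HIF1A in 3 of 8. VEGFA did not differ past the threshold, at 0.00 ± 0.24 (limma adjusted p = 0.998), with a 95% interval of -0.55 to 0.55. Between BT-549 and T47D, NDRG1 alone of 38 passed, at 1.67 ± 0.25 (limma adjusted p = 0.0372), against 1.53% of 15506 genes (0.787% higher, 0.742% lower), and the call was lost in 6 of 8 fits that left out 1 library. Between T47D-TR and T47D none of 37 passed limma's test (0.0289% of 13855 genes called), and 6 had an unadjusted p under 0.05.

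**Figure D3:**
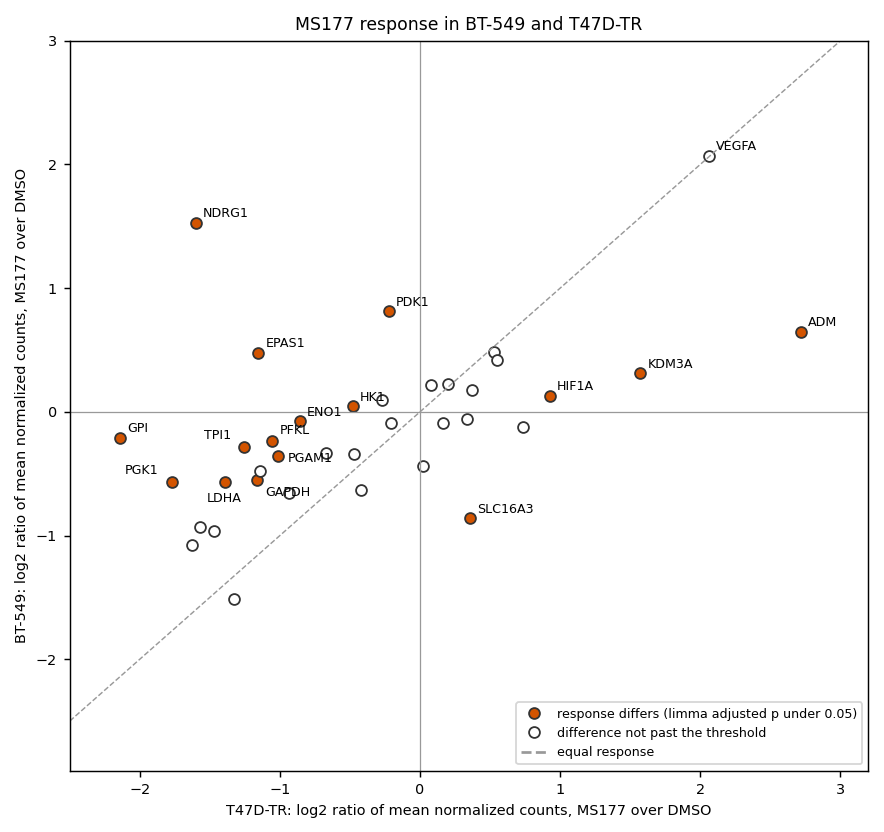
Log2 ratio of mean normalized counts, MS177 over DMSO, in BT-549 (y axis) and T47D-TR (x axis) for 37 genes, 1 point a gene; filled points passed limma's test of the difference between the lines, and the dashed line marks an equal response. NDRG1, GPI and EPAS1 lie above the line, ADM and KDM3A below it, and VEGFA on it.

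MS8815, given to T47D-TR for 30 h, raised ADM and lowered LDHA. Of 36 tested members the other 34 did not pass, against 6.25% of all 12067 genes called (3.27% higher, 2.98% lower). In all, 10 members had an unadjusted p under 0.05. ADM had 171 and 284 normalized counts in MS8815 libraries, against 37.0 and 45.4 in DMSO libraries, a 5.52-fold rise with a log2 difference of 1.43 ± 0.23 (limma adjusted p = 0.0463). LDHA had 3401 and 3851 normalized counts in MS8815 libraries, against 10415 and 10143 in DMSO libraries, a 2.83-fold fall with a log2 difference of -1.48 ± 0.21 (limma adjusted p = 0.0378). Both calls were lost without either DMSO library, and the balance of calls turned with the MS8815 library left out. Without MS8815 replicate 1 limma called 24 members, 15 higher and 9 lower, with 49% of all genes called. Without replicate 2 it called 20, 5 higher and 15 lower, with 59.8% of all genes called.

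Several members lay outside their DMSO pair in both MS8815 libraries without passing. How many of all genes did the same was not counted, so these values are a description. NDRG1 had 1589 and 2153 normalized counts in MS8815 libraries, against 769 and 674 in DMSO libraries (limma adjusted p = 0.0517). BNIP3 had 973 and 1417 normalized counts in MS8815 libraries, against 533 and 445 in DMSO libraries (limma adjusted p = 0.0647). P4HA2, a collagen prolyl hydroxylase, had 822 and 1463 normalized counts in MS8815 libraries, against 351 and 341 in DMSO libraries (limma adjusted p = 0.0608). For comparison at the later time of 48 h, MS177 libraries of this line had 376 and 300.3 for NDRG1, below their own DMSO pair, and since time, vehicle level and scale differ no comparison was made. In NDRG1, BNIP3 and P4HA2 both MS8815 libraries were above both DMSO libraries, and PGAM1 and EPAS1 were the reverse. PGAM1 had 4639 and 5863 normalized counts in MS8815 libraries, against 11622 and 10519.9 in DMSO libraries (limma adjusted p = 0.0656). EPAS1 had 697 and 1076 normalized counts in MS8815 libraries, against 1984 and 2202 in DMSO libraries (limma adjusted p = 0.0658). PFKFB3 was lower in both, with 1517 and 2772 normalized counts in MS8815 libraries, against 3464 and 3936 in DMSO libraries. PFKFB4 was higher in both, with 208 and 267 normalized counts in MS8815 libraries, against 172 and 160.4 in DMSO libraries. HK2 was higher too, with 397 and 844 normalized counts in MS8815 libraries, against 322 and 341 in DMSO libraries.

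HIF1A and the oxygen sensors overlapped DMSO with MS8815. HIF1A had 890.2 and 1365 normalized counts in MS8815 libraries, against 885 and 976 in DMSO libraries. EGLN1 had 525 and 909.6 normalized counts in MS8815 libraries, against 877 and 873 in DMSO libraries. EGLN3 had 538 and 609 normalized counts in MS8815 libraries, against 593 and 476 in DMSO libraries. The groups also overlapped for the glucose transporter, PGK1 and VEGFA. SLC2A1 had 1142 and 2274 normalized counts in MS8815 libraries, against 1325 and 1365 in DMSO libraries. PGK1 had 864 and 1327 normalized counts in MS8815 libraries, against 1009 and 1047 in DMSO libraries. VEGFA, high with MS177, had 209.6 and 692 normalized counts in MS8815 libraries, against 203 and 295 in DMSO libraries.

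SLC16A3, PDK1 and ANGPTL4 were lower in both MS8815 libraries, and none of them passed, so their values too are a description. SLC16A3 had 555 and 431 normalized counts in MS8815 libraries, against 644 and 584 in DMSO libraries. PDK1 had 154 and 150.2 normalized counts in MS8815 libraries, against 179 and 205 in DMSO libraries. ANGPTL4 had 213 and 143 normalized counts in MS8815 libraries, against 254 and 255 in DMSO libraries. The hypoxia target ANKRD37 lay below the filter with 12.8 and 4.56 normalized counts in MS8815 libraries, against 25.4 and 17.0 in DMSO libraries. Compared directly, MS8815 differed from MS8815-N and from EPZ-6438 in 0 of 37 members by limma (0.0574% and 0.108% of 13931 genes called), with 6 and 5 members at an unadjusted p under 0.05. The median log2 difference of all genes between MS8815 and MS8815-N was 0.52, and that of the members 0.08. ADM was 171 and 284 in MS8815 libraries, against 55.4 and 233 in MS8815-N libraries, so replicate 2 of MS8815-N, in which 6933 genes were at 0, lay within the MS8815 pair. LDHA was 3401 and 3851 in MS8815 libraries, against 8506 and 7048 in MS8815-N and 9916 and 9150.5 in EPZ-6438 libraries. The groups did not overlap, though LDHA passed neither direct comparison. Without MS8815-N replicate 1 limma called 14 members between MS8815 and MS8815-N (56% of genes), and without replicate 2 it called 0.

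**Figure D4:**
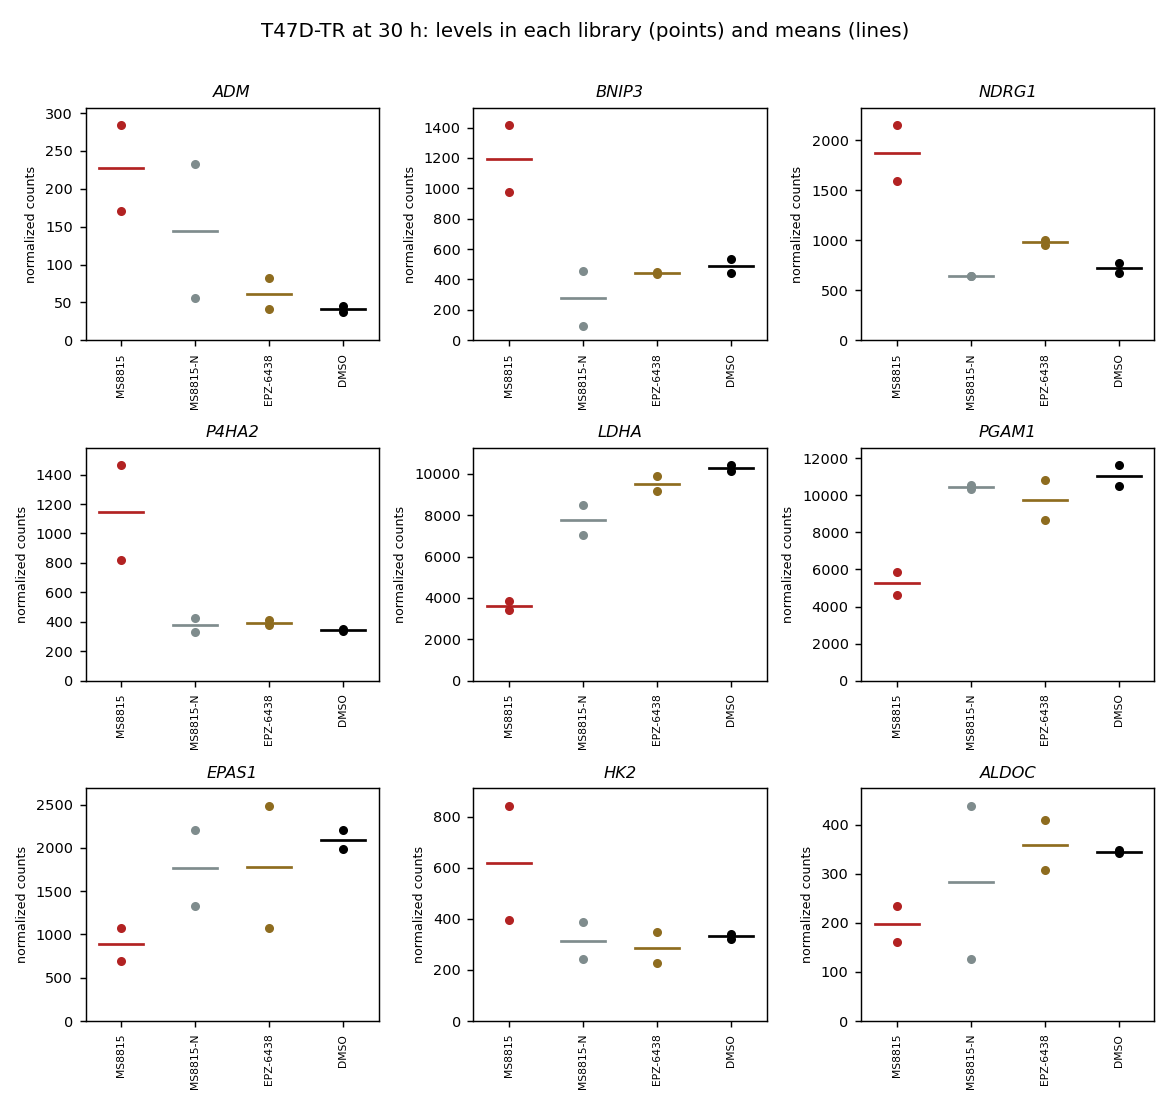
Normalized counts (y axis, from 0) of 9 genes in T47D-TR at 30 h in each library (points) with group means (lines) for MS8815, MS8815-N, EPZ-6438 and DMSO. ADM passed the test against DMSO as higher and LDHA as lower, and the other 7 genes did not pass.

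Genes around the module were counted from lists of related pathways, which were chosen with earlier results of these data known. The counts are to be read against the shares of all genes called with MS177, 31.1% higher and 31.4% lower in T47D-TR and 12.9% higher and 14.4% lower in BT-549. Among other HIF target genes, 8 of 27 tested rose and 10 fell with MS177 in T47D-TR, among them HMOX1 (heme oxygenase, 7.01-fold higher), TXNIP (an inhibitor of glucose uptake, 4.72-fold higher), STC2 (4.26-fold lower) and TFRC (the transferrin receptor, 3.02-fold lower). In BT-549 7 of 34 rose and 9 fell, among them STC2 (6.08-fold higher), PPFIA4 (4.70-fold lower) and the carbonic anhydrase CA12 (3.18-fold lower). STC2 thus fell in T47D-TR and rose in BT-549. Of other HIF pathway regulators 1 of 11 rose and 3 fell in T47D-TR, and 2 of 13 rose and 1 fell in BT-549. CITED2, which competes with HIF for its coactivators, fell 5.24-fold in T47D-TR and 1.31-fold in BT-549, and VHL, the ubiquitin ligase subunit that binds hydroxylated HIF, rose 2.05-fold in BT-549.

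Other routes of glucose carbon were also counted, against the same shares (31.1% higher and 31.4% lower in T47D-TR, 12.9% and 14.4% in BT-549). Of the pentose phosphate pathway 1 of 9 tested genes rose and 6 fell in T47D-TR, and 0 rose and 2 fell in BT-549. Of mitochondrial pyruvate entry and the TCA cycle 5 of 27 rose and 8 fell in T47D-TR, with MPC1, a pyruvate carrier subunit, 2.70-fold higher, and 3 of 28 rose and 2 fell in BT-549. Glycogen genes were split, 4 of 11 up and 4 down in T47D-TR and 2 of 13 up and 2 down in BT-549. Of other glycolysis enzymes 1 of 6 rose and 4 fell in T47D-TR, and 2 of 7 rose and 1 fell in BT-549. PGM1, phosphoglucomutase, fell 5.07-fold in BT-549. Genes of the ATF4 stress response rose in 15 of 16 cases in T47D-TR, and 18 of 18 rose in BT-549, with none lower (DDIT4 is on both this list and that of other HIF targets). With MS8815 9 of 17 rose, against 3.27% of all genes. Mitochondrially encoded transcripts fell with MS177 in 3 of 13 cases in T47D-TR, and 7 of 13 fell in BT-549. The part of either group in the module's changes was not tested.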

How the data were processed

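RNA was extracted with RNeasy columns and polyadenylated RNA was made into libraries with a NEBNext Ultra II kit, per the labels' protocols. RSEM, DESeq and the hg38 build are named in the submitters' processing notes; versions, the annotation and the use of strand are not given in the sources used here. Each of the 15 deposited tables holds variance-stabilized log2 expression values for a compound pair and a DMSO pair. From each deposited log2 value v and the table's lowest value, normalized counts were computed as (2 to the power v minus 2 to the power of the lowest) squared, divided by 2 to the power v. In T47D and BT-549, 100% of these (up to 1000 reads, tolerance 0.05) were whole multiples of a step per library, which gave 32.1 M to 49.9 M reads per library (M, mega). In T47D-TR only 8.17% to 16.3% were whole, so depth is unknown there and that the values are scaled counts is an assumption. The DMSO libraries that a line's tables share set their common scale, with a single factor for a table of T47D or BT-549 and a factor for each gene in T47D-TR.

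Comparisons with DMSO were fitted in limma 3.58.1 (R 4.3.3, trend and robust) on the deposited log2 values, keeping genes that exceeded the lowest value by over 1 log2 unit in 2 or more libraries. Direct comparisons of compounds (11) and tests of whether the MS177 response differed between lines (3) used log2(normalized count + 1), keeping genes that reached 10 normalized counts in 2 or more libraries. Two-sided p-values were given Benjamini-Hochberg adjustment across all genes tested, with a threshold of 0.05. The programs were tested on simulated data. The members, lists and tests were chosen with earlier results of these data known. Values in each library are given for 19 regulators, enzymes and targets on a set list and for the largest rises and falls past the threshold. Values of ENO2, PDK3 in T47D-TR, SLC2A3, GAPDH, P4HA2 and PGAM1 were added after they were seen, since these genes lay near the threshold or below the filter. The description of lower glycolysis in T47D was also added after its values were seen. Alternatives were other scales, no filter, centred libraries, the compared libraries alone, a replicate block and each library left out. Sequences are from RefSeq (GRCh38.p14).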

Additional observations from a re-analysis of the deposited data

Results flagged for a closer look

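The response to MS177 differed between BT-549 and T47D-TR in 16 members, of which the largest, up to 6 in each direction, are given here with the 1 that differed between BT-549 and T47D, as log2 differences between the responses of BT-549 and another line, each tested with limma over all genes. NDRG1 responded 3.14 higher in BT-549 than in T47D-TR and 1.67 higher in BT-549 than in T47D. Of the 12 members with a higher response in BT-549 than in T47D-TR, the next 5 differed by 1.94 for GPI, 1.62 for EPAS1, 1.26 for PGK1, 1.04 for PDK1 and 0.94 for TPI1. The difference was -2.05 for ADM, -1.26 for KDM3A, -1.21 for SLC16A3 and -0.80 for HIF1A, whose response was lower in BT-549 than in T47D-TR. All of these compare lines whose tables were normalized separately, and the part of that step in the differences was not tested.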

How the results depend on the processing

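Of the members called in the main fits and followed through the settings, none changed direction under any setting tried. Members not called in a main fit, such as all of those with MS177 against DMSO in T47D, were not followed. The balance of the MS8815 calls turned with the library left out, as described above. The numbers of members called moved as follows, and the cause was not tested. Replicate numbers were not used to pair the samples in the main fits. The differences between the replicates of a group correlated with those of another group at -0.343 to 0.350, over 26 pairs of groups. Both extremes lay in BT-549, and whether samples with the same number share a source of variation was not tested. With the replicate number as a block, 3 members were called for C24 against DMSO in T47D, 8 for MS177 and 12 for MS177-N1 against DMSO in BT-549, in T47D 1, 4 and 4 for MS177 against MS177-N1, MS177-N2 and C24, and 0 and 8 for the MS177 response of BT-549 against T47D and T47D-TR. No paired analysis was possible for MS8815, MS8815-N and EPZ-6438 against DMSO because their DMSO libraries are replicates 3 and 4. With the compared libraries alone, in T47D 0, 0 and 0 members were called for MS177 against MS177-N1, MS177-N2 and C24, and 9 against MS177-N1 in BT-549. With no filter on low values 1 member was called for MS8815. A fit with all libraries of the line, chosen after seeing the data, called 7 for MS177 in T47D, with its share of all genes given above. For the other settings of this paragraph the shares of all genes called are not given here. Those counts therefore do not show how the members stand against all genes.

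Without 1 library in turn, the number of members called ranged as follows, with the share of all genes called in the fit with the highest number in parentheses. Against DMSO it ranged from 0 to 27 (49.7%) for MS177 in T47D, 8 to 13 (28.5%) for MS177 in BT-549, 0 to 8 (20.4%) for C24 in T47D, 0 to 1 (5.87%) for C24 in BT-549 and 0 to 2 (2.93%) for MS177-N2 in T47D. In T47D-TR it ranged from 1 to 8 (28.6%) for MS177-N1, 0 to 24 (49%) for MS8815, 0 to 21 (75.6%) for MS8815-N and 0 to 21 (40.6%) for EPZ-6438. For MS177 in T47D it ranged from 23 to 26 (53.9%) against MS177-N1, 0 to 28 (74.4%) against MS177-N2 and 0 to 31 (57.3%) against C24, and in BT-549 from 11 to 15 (21.2%) against MS177-N1. It ranged from 0 to 14 (56%) for MS8815 against MS8815-N, 0 to 20 (46.6%) for the response of BT-549 against T47D and 0 to 18 (39.9%) for that of T47D-TR against T47D. Of all other values followed, 405 kept and 109 lost their call without 1 library, 101 and 17 with the block, 51 and 20 with the compared libraries alone, 116 and 4 with centred libraries, and 116 and 4 with no filter. MS177-N1 in T47D, with 1 library, could not be fitted without it. Genes with few reads lay below the filter, and in T47D-TR depth cannot be read from the values.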
